A study of Mus musculus with 19 samples.

Results

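Crossover formation during meiosis depends on a small group of germline proteins, and 9 mouse genes that encode them were followed here: Msh4, Msh5, Mlh3, Hfm1, Tex11, Mcmdc2, Rnf212, Ccnb1ip1 and Cntd1. The genes were taken by symbol from a list, and all 9 were found among the 22419 genes of the expression tables. Each exceeded 1 TPM (a transcript level corrected for transcript length and library size) in at least 1 library, so all 9 were among the 12528 expressed genes that were tested.

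The RNA was poly(A) RNA from germ cells at the preleptotene stage, the point at which mouse spermatocytes replicate their DNA and enter meiosis. The cells came from C57BL/6 males carrying Ddx4-Cre, which is active in germ cells, and a Rosa26-tdTomato reporter, and were sorted by tdTomato fluorescence. All animals received WIN18,446, an inhibitor of retinoic acid synthesis, on postnatal days 2 to 8 and retinoic acid on day 9, and testes were taken about 6.75 days later. The 3 groups were Stra8-deficient cells (Stra8-/-, 3 libraries), low-STRA8 cells (Stra8+/-, 2 libraries) and high-STRA8 cells (Stra8+/-, 2 libraries), the last 2 being told apart by STRA8 staining of a piece of each testis. STRA8, a germ cell protein induced by retinoic acid, is required for meiotic initiation, and its binding was mapped by chromatin immunoprecipitation (ChIP-seq) with a FLAG antibody in unsorted, synchronized testes of 3 Stra8 FLAG/FLAG mice and 3 wild-type mice, C57BL/6 with under 4% 129. ChIP replicates 1 and 2 were made with one library kit and replicate 3 with another, and each FLAG/FLAG sample was processed beside a wild-type sample.

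Meiotic crossovers arise from double-strand breaks that are repaired on the homologous chromosome. MSH4 and MSH5 form the MutSγ clamp, which stabilizes the branched repair intermediates. HFM1, TEX11 and MCMDC2 act with them to form and maintain these intermediates, RNF212 and CCNB1IP1 (HEI10) select the sites that mature, and CNTD1 and the MutLγ endonuclease, which contains MLH3, act at the sites that become crossovers. These steps are completed in pachytene, well after the preleptotene stage sampled here.

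RNA-seq depth was 25049625 to 30015072 estimated counts per library. Stra8 was at 18.0, 22.8 and 5.16 TPM in the Stra8-deficient libraries, at 315 and 236 TPM in low-STRA8 and at 1099 and 1248 TPM in high-STRA8 libraries, in the order of the group labels. Germ cell markers were present in all libraries, and their summed level was lower in low-STRA8 libraries (2842 and 2943 TPM) than in the other 5 (3727 to 5828 TPM). Tex101 made most of that gap (563 and 715 TPM against 1636 to 2842 TPM), and Mael was at 737 and 704 TPM in low-STRA8 against 605 to 661 TPM elsewhere. Of 12 markers of pachytene and later cells, 4 exceeded 1 TPM in some library, and the late markers Pgk2 and Acr were at 0 throughout. The sum of the 12 was 103 to 138 TPM, most of it Tbpl1 (70.2 to 114 TPM) and Hspa2, which was at 42.1 and 41.5 TPM in high-STRA8 and 16.1 to 23.4 TPM in the other libraries. All 10 Sertoli cell markers exceeded 1 TPM in some library, and their sum was 100 TPM in low-STRA8 replicate 2 against 386 to 624 TPM elsewhere. Clu was the largest part of the sum (51.1 to 474 TPM). Wt1, Gata4, Cldn11, Dhh, Fshr and Rhox5 were highest in low-STRA8 replicate 1, and Sox9, Amh, Trf and Clu were not. Cldn11 was at 99.7 TPM there, 19.1 TPM in low-STRA8 replicate 2 and 41.3 to 71.1 TPM elsewhere. The sum of 7 macrophage and blood cell markers was 41.9 and 46.3 TPM in low-STRA8, 7.93 to 26.0 TPM in Stra8-deficient and 1.54 and 7.68 TPM in high-STRA8 libraries; in low-STRA8 it was made by the globin genes Hba-a1 (17.6 and 18.2 TPM) and Hbb-bs (22.9 and 27.0 TPM), with each of the other 5 markers under 1 TPM. The macrophage marker Lyz2 stood at 8.14 TPM in Stra8-deficient replicate 3 and under 1 TPM elsewhere. Leydig markers (5 of 6 over 1 TPM in some library) summed to 3.48 to 18.9 TPM, with Lhcgr under 1 TPM throughout. Their sum was lowest in low-STRA8 replicate 2 and highest in low-STRA8 replicate 1. Peritubular and endothelial markers (3 of 6, the endothelial Pecam1, Cdh5 and Kdr being under 1 TPM) summed to 14.8 to 47.3 TPM. Markers of undifferentiated spermatogonia (8 of 10 over 1 TPM) summed to 53.6 to 65.9 TPM in Stra8-deficient libraries and to 16.8 to 25.3 TPM in the Stra8+/- libraries. Most of the sum was Zbtb16 (16.7 to 20.6 against 3.65 to 5.34 TPM), Sall4 (13.2 to 28.8 against 3.69 to 6.78 TPM) and Lin28a. Id4 was instead highest in high-STRA8 libraries (2.1 and 1.9 TPM), Etv5 overlapped between groups, and Gfra1 and Nanos2 were under 1 TPM throughout. The part of any of these cell types in the results below was not tested. Since the libraries are of bulk RNA, fewer cells expressing a gene and less RNA per cell cannot be told apart.

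The sequences at the summits of STRA8-FLAG binding are shown first, because the 9 genes differ in this respect. A summit is the base at which a MACS2 peak is highest, and its score is the −log10 p of the peak. STRA8-FLAG summits lay within 1 kb of a transcription start site (TSS) in all 3 FLAG/FLAG libraries for Msh5, Hfm1 and Tex11 and in 2 of 3 for Rnf212 and Mcmdc2. The following windows of mm10, read from GRCm38.p6 5′ to 3′ on the strand of the gene, lie at or beside these summits with annotated exons left out, except for the Msh5 and Hfm1 sites of 30 bases, which hold bases of a first exon. Capitals mark whole matches to CNCCTCAG, the motif that the study named for STRA8, on either strand (N is any base; the other strand reads CTGAGGNG).
Msh5, match site in the 5′ end of the gene, chr17:35046686-35046715, minus strand: gatcgtcgcggCTGAGGTGacggaaaaggc
Msh5, between its 2 start sites, chr17:35046623-35046699, minus strand: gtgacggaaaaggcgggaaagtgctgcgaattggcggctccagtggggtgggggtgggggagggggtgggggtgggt
Hfm1, upstream of Hfm1-201, chr5:106925891-106926004, minus strand: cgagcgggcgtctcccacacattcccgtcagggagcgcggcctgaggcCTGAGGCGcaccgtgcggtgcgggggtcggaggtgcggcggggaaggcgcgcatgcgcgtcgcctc
Hfm1, match site at the start of Hfm1-201, chr5:106925878-106925907, minus strand: cgcatgcgcgtCGCCTCAGcctcccgcccg
Tex11, upstream, chrX:101059668-101059825, minus strand: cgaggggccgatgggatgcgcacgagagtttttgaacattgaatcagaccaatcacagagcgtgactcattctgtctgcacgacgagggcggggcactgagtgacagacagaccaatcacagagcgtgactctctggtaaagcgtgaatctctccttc
Rnf212, upstream, chr5:108774983-108775091, minus strand: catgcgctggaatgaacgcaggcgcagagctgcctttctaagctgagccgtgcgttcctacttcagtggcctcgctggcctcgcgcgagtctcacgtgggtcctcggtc
Mcmdc2, first intron, chr1:9908709-9908849, plus strand: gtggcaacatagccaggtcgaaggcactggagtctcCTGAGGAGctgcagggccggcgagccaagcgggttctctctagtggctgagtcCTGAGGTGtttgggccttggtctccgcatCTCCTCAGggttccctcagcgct

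Msh5 and Hfm1, the genes with the strongest summits, had matches close to their summits. The study found the motif at promoter summits of these same FLAG/FLAG libraries, so matches near summits are not independent of the binding. In FLAG/FLAG replicates 1 to 3 the nearest match lay 5.5, 44.5 and 15.5 bp away for Msh5 and 11.5, 8.5 and 25.5 bp away for Hfm1. Mcmdc2 had 3 matches 72 to 154 bp from its nearest summit. The Tex11 and Rnf212 windows held no match. The Tex11 window held a 24-base stretch, cagaccaatcacagagcgtgactc, 2 times, each copy with the word CCAAT, and the Rnf212 window held CACGTG. These words were looked for after the sequences had been seen: within 100 bp centred on a summit, CCAAT on either strand was present at 7.32 to 8.18% of all FLAG/FLAG summits and CACGTG at 2.67 to 3.29%, depending on the library. CCAAT was not particular to Tex11: Msh5, which holds motif matches, also had 1 CCAAT at its summit in each library, as Tex11 did.

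In high-STRA8 against Stra8-deficient cells, 7 of the 9 genes rose (edgeR, adjusted p under 0.05 over all 12528 genes), where 18.8% of tested genes did. They were Msh5, Mcmdc2, Hfm1, Cntd1, Rnf212, Tex11 and Ccnb1ip1, in order of fold change. Mlh3 fell, as did 18.3% of tested genes, and Msh4 did not pass the test. The median log2 fold change of the 9 was 0.93, against -0.02 for all tested genes. In high-STRA8 against low-STRA8 cells, 7 of 9 rose, where 21.4% of tested genes did. None of the 9 fell in that comparison by edgeR, by DESeq2, by limma on log2 TPM or at an unadjusted edgeR p under 0.05 (0 genes each), while 18.3% of tested genes were lower. The 2 genes of that comparison without a call were Mlh3 and Ccnb1ip1. Without high-STRA8 replicate 1 or without replicate 2, 3 of the 9 were called there (Msh5, Hfm1 and Cntd1). In low-STRA8 against Stra8-deficient cells, 2 of 9 rose (Msh5 and Ccnb1ip1), where 10.2% of tested genes did, and 1 fell (Mlh3), where 13.9% did. The first 2 comparisons share the high-STRA8 libraries, the first and the last share the Stra8-deficient ones, and the low-STRA8 libraries enter the other pair.

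**Figure D1:**
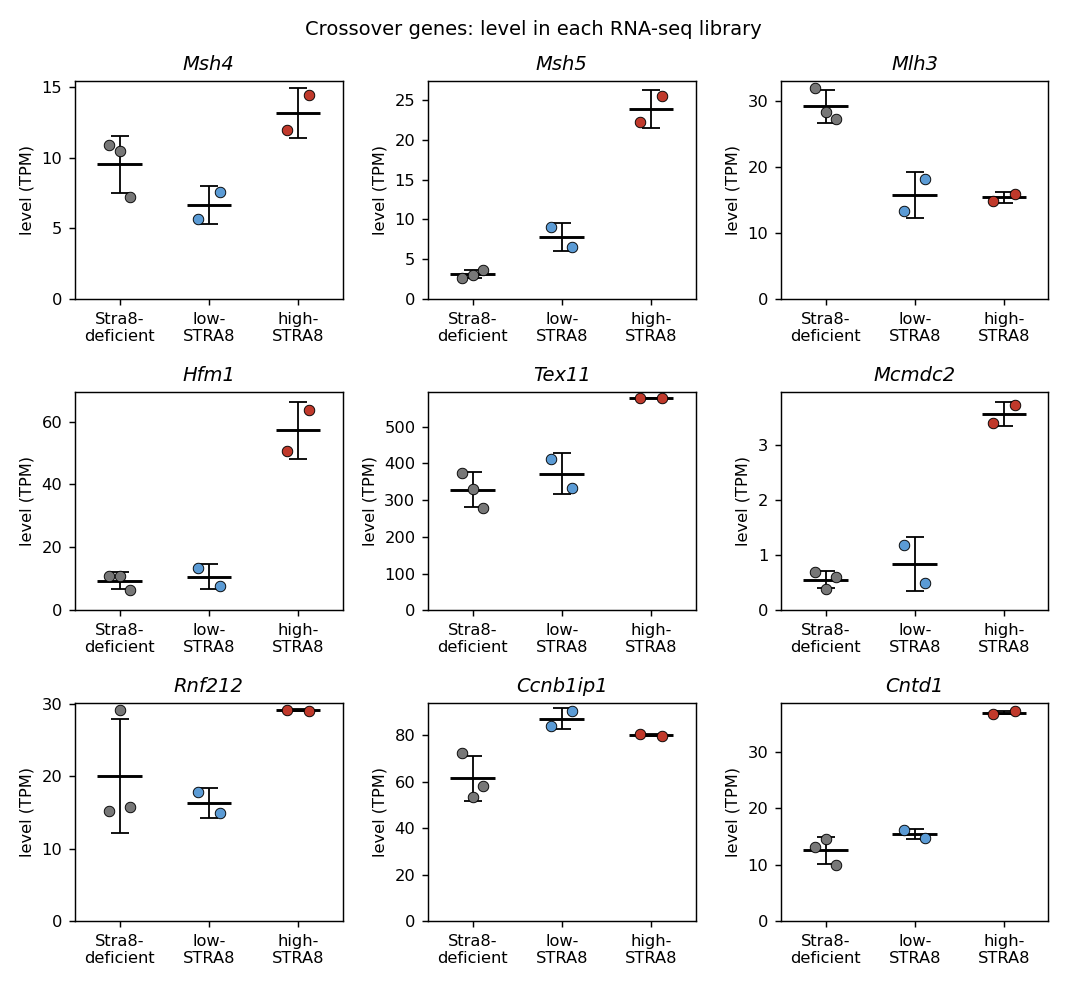
Level of each gene (TPM, vertical axis from 0) in each library, with points for libraries, thick bars for group means and error bars for the SD (n = 3, 2 and 2). Hfm1, Msh5, Mcmdc2, Cntd1, Tex11 and, by less, Msh4 had both high-STRA8 libraries above the other 5. Mlh3 had its 3 Stra8-deficient libraries above the other 4, and Rnf212 had 1 Stra8-deficient library at the high-STRA8 level. The share of all tested genes with such separations was not counted.

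**Figure D2:**
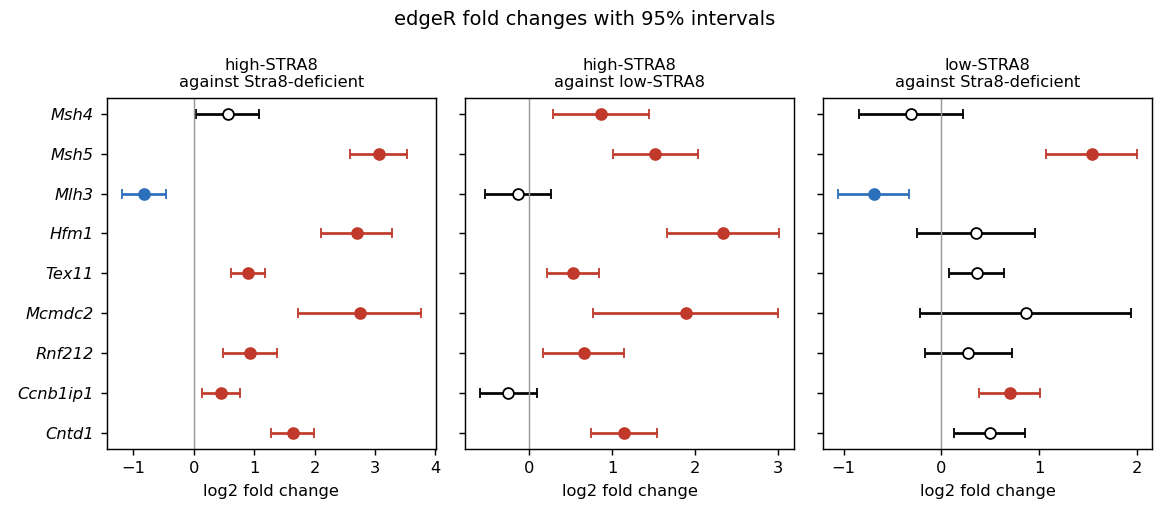
The edgeR log2 fold change of each gene (horizontal axis) in the 3 comparisons, with 95% intervals. Red filled points rose, blue filled points fell and open points did not pass an adjusted p of 0.05. Msh5 rose in all 3 comparisons, and Mlh3 fell in both comparisons against Stra8-deficient cells.

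The MutSγ partners Msh4 and Msh5 differed from each other. Msh5 (chr17:35028605-35046745, minus strand) was at 2.66, 3.0 and 3.64 TPM in Stra8-deficient, at 9.04 and 6.58 TPM in low-STRA8 and at 22.2 and 25.5 TPM in high-STRA8 libraries. The 3 groups did not overlap, and their order was that of STRA8. Its fold change was 8.35 in high-STRA8 against Stra8-deficient cells (log2 3.06 ± 0.205 SE, adjusted p = 6.45e-05, edgeR), 2.88 in high-STRA8 against low-STRA8 cells (adjusted p = 0.00193) and 2.90 in low-STRA8 against Stra8-deficient cells (adjusted p = 0.00267). It was the only one of the 9 genes with a call in all 3 comparisons. Msh4 (chr3:153857149-153906138, minus strand) was at 10.9, 10.5 and 7.24 TPM in Stra8-deficient, at 5.69 and 7.59 TPM in low-STRA8 and at 11.9 and 14.4 TPM in high-STRA8 libraries. Both high-STRA8 libraries were above the other 5, clearly so against low-STRA8 and narrowly against Stra8-deficient libraries, and low-STRA8 and Stra8-deficient levels overlapped. Msh4 was higher in high-STRA8 than in low-STRA8 cells (log2 0.87 ± 0.253 SE, adjusted p = 0.0262), with a 95% interval in high-STRA8 against Stra8-deficient cells from 0.04 to 1.08 (adjusted p = 0.0846, and 0.0497 without low-STRA8 replicate 1). Without low-STRA8 replicate 1, high-STRA8 replicate 1 or high-STRA8 replicate 2, the call against low-STRA8 cells was lost (adjusted p = 0.0885, 0.0714 and 0.171). In all 3 Stra8-deficient libraries the level of Msh4 exceeded that of Msh5, in both high-STRA8 libraries Msh5 exceeded Msh4, and in low-STRA8 the libraries differed in this order.

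Mlh3 (chr12:85234520-85270599, minus strand), the subunit that distinguishes MutLγ, moved in the opposite direction. It was at 32.1, 28.4 and 27.4 TPM in Stra8-deficient, at 13.4 and 18.3 TPM in low-STRA8 and at 14.9 and 16.0 TPM in high-STRA8 libraries. All 4 Stra8+/- libraries were below all 3 Stra8-deficient libraries, and the 2 Stra8+/- groups overlapped. Mlh3 fell by 0.83 on the log2 scale in high-STRA8 (SE 0.161, adjusted p = 0.00479, edgeR) and by 0.69 in low-STRA8 cells (SE 0.160, adjusted p = 0.0175) against Stra8-deficient cells. Its difference between high-STRA8 and low-STRA8 cells was -0.14 with a 95% interval from -0.53 to 0.26 (adjusted p = 0.572), which changed sign without low-STRA8 replicate 2 (0.15). The call in low-STRA8 cells was lost without Stra8-deficient replicate 1 (adjusted p = 0.0532) or low-STRA8 replicate 1 (adjusted p = 0.0604). Mlh3 was thus the only one of the 9 genes called lower in any comparison, in both Stra8+/- groups against Stra8-deficient cells.

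Of the genes for HFM1, a helicase of the MutSγ pathway, TEX11, an X-linked protein of the same pathway, and MCMDC2, a protein of the MCM family needed for homologous repair, all 3 rose. Hfm1 (chr5:106840192-106926321, minus strand) was at 11.01, 10.9 and 6.45 TPM in Stra8-deficient, at 13.5 and 7.81 TPM in low-STRA8 and at 50.8 and 63.7 TPM in high-STRA8 libraries. Both high-STRA8 libraries stood far above the other 5, which overlapped. The fold change was 6.47 against Stra8-deficient cells (log2 2.69 ± 0.260 SE, adjusted p = 0.000198) and 5.07 against low-STRA8 cells (log2 2.34 ± 0.296 SE, adjusted p = 0.00119). The log2 difference between low-STRA8 and Stra8-deficient cells was 0.35, with a 95% interval from -0.25 to 0.96.

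Tex11 (chrX:100838648-101059667, minus strand) had the highest level of the 9 genes in every library: 375, 331 and 280 TPM in Stra8-deficient, 413 and 333 TPM in low-STRA8 and 577 and 579 TPM in high-STRA8 libraries. The low-STRA8 and Stra8-deficient levels overlapped, and both high-STRA8 libraries were above them. Its fold change was smaller than that of Hfm1, 1.85 against Stra8-deficient cells (log2 0.89 ± 0.123 SE, adjusted p = 0.000956) and 1.44 against low-STRA8 cells (adjusted p = 0.0166). Without low-STRA8 replicate 2 the latter call was lost (log2 0.41, adjusted p = 0.0817), and it was also lost without either high-STRA8 replicate (adjusted p = 0.0739 and 0.0925). Mcmdc2 (chr1:9908638-9942085, plus strand) was the lowest, at 0.686, 0.390 and 0.596 TPM in Stra8-deficient, 1.19 and 0.494 TPM in low-STRA8 and 3.40 and 3.72 TPM in high-STRA8 libraries. These levels rested on 10 to 17, 14 and 35, and 86 and 92 estimated counts, respectively. Its log2 fold change of 2.75 ± 0.445 SE against Stra8-deficient cells (adjusted p = 0.00202) had the widest interval of the 9 genes, from 1.73 to 3.77. The call against low-STRA8 cells (log2 1.89, adjusted p = 0.0167) was lost without either high-STRA8 replicate (adjusted p = 0.0673 and 0.0978).

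The genes for the site-selecting E3 ligases, RNF212 (a SUMO ligase-like protein) and CCNB1IP1 (HEI10), rose in high-STRA8 against Stra8-deficient cells, with calls that were lost under several alternatives. Rnf212 (chr5:108729290-108774982, minus strand) was at 15.2, 29.1 and 15.8 TPM in Stra8-deficient, at 17.9 and 14.9 TPM in low-STRA8 and at 29.2 and 29.1 TPM in high-STRA8 libraries. Stra8-deficient replicate 2 was at the high-STRA8 level. That library differed by 1 short transcript, Rnf212-201, which was assigned 12.4 TPM from 10.2 estimated counts there, 1.87 TPM in Stra8-deficient replicate 3 and 0 TPM in the other 5 libraries. On gene counts, which give short transcripts little weight, Rnf212 rose by 0.93 on the log2 scale against Stra8-deficient cells (SE 0.192, adjusted p = 0.00622, edgeR). With transcript lengths as offsets the log2 fold change was 0.63 (adjusted p = 0.128), and by limma on log2(TPM + 1) it was 0.58 (adjusted p = 0.111), neither of which passes the threshold. The call was also lost without either high-STRA8 replicate (adjusted p = 0.068 and 0.0606). Against low-STRA8 cells (log2 0.66, adjusted p = 0.0396) it was lost under 9 of 15 alternatives. Levels of the 2 longer transcripts were 12.04, 13.5 and 11.99 TPM (Rnf212-206) and 3.14, 3.18 and 1.96 TPM (Rnf212-202) in Stra8-deficient and 22.2 and 20.7 TPM and 6.99 and 8.41 TPM in high-STRA8 libraries, with no overlap for either transcript.

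Ccnb1ip1 (chr14:50789248-50807732, minus strand) was at 72.5, 53.5 and 58.4 TPM in Stra8-deficient, at 83.9 and 90.4 TPM in low-STRA8 and at 80.4 and 79.8 TPM in high-STRA8 libraries. A single transcript was counted for it, Ccnb1ip1-201 (50789248-50795728). The annotated locus extends further upstream, and the motif was looked for only around the start of that transcript. Both Stra8+/- groups were above the Stra8-deficient group, with the low-STRA8 libraries highest. The rise was 1.63-fold in low-STRA8 (log2 0.70 ± 0.136 SE, adjusted p = 0.00945) and 1.36-fold in high-STRA8 cells (log2 0.44 ± 0.137 SE, adjusted p = 0.0332) against Stra8-deficient cells. The high-STRA8 call was lost with the replicate block (adjusted p = 0.102) and without Stra8-deficient replicate 2 or 3 or either high-STRA8 replicate (adjusted p = 0.0765, 0.0856, 0.161 and 0.164). The difference between high-STRA8 and low-STRA8 cells was -0.26 (95% interval -0.60 to 0.09).

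Cntd1 (chr11:101279012-101296317, plus strand), a cyclin-like gene whose product acts late in crossover designation, was at 13.1, 14.6 and 9.98 TPM in Stra8-deficient, at 16.1 and 14.8 TPM in low-STRA8 and at 36.7 and 37.1 TPM in high-STRA8 libraries. Both high-STRA8 libraries were above the other 5. The fold change was 3.11 against Stra8-deficient (log2 1.64 ± 0.156 SE, adjusted p = 0.000195) and 2.21 against low-STRA8 cells (log2 1.14 ± 0.175 SE, adjusted p = 0.00225). Of its 2335 exonic bases, 1394 are shared with Becn1 on the opposite strand. The library kit was stranded, but the strand setting of the counting was not given in the sources used here. Becn1, an autophagy gene, was at 177 to 215 TPM in Stra8-deficient, 144 and 169 TPM in low-STRA8 and 186 and 193 TPM in high-STRA8 libraries and was not called in the comparison of high-STRA8 with Stra8-deficient cells (log2 0.11, 95% interval -0.12 to 0.33).

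By level, the order in Stra8-deficient cells was Tex11, Ccnb1ip1, Mlh3, Rnf212, Cntd1, Msh4, Hfm1, Msh5 and Mcmdc2, with means from 328 to 0.557 TPM. In that order Mlh3 and Rnf212 overlapped across libraries, as did Cntd1, Msh4 and Hfm1. In high-STRA8 cells it was Tex11, Ccnb1ip1, Hfm1, Cntd1, Rnf212, Msh5, Mlh3, Msh4 and Mcmdc2, with means from 578 to 3.56 TPM, and none of these neighbours overlapped in the 2 libraries. Hfm1 moved from 9.44 ± 2.59 TPM (SD, n = 3) to 57.2 ± 9.14 TPM (SD, n = 2), past Mlh3, Rnf212 and Cntd1.

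Transcripts were described because the gene levels above can hide a change of start site. For Hfm1, the levels in high-STRA8 cells came from Hfm1-201 (50.8 and 63.7 TPM), whose start lies 37 to 54 bp downstream of the summits, and Hfm1-202, which starts further upstream, was at 0 TPM in both libraries. Hfm1-201 also made 83.5 to 100% of the gene's level in Stra8-deficient and 77.3 and 100% in low-STRA8 libraries, so no change of start site was seen. Both Msh5 transcripts stood higher in the high-STRA8 group, Msh5-201 at 8.02 and 17.6 TPM against 0.299 to 1.10 TPM in Stra8-deficient libraries and Msh5-202 at 14.2 and 7.88 TPM against 1.90 to 2.81 TPM. Which of them was higher differed between the 2 high-STRA8 libraries. Mlh3-201 was at 10.8 to 23.2 TPM in Stra8-deficient and 5.18 and 7.41 TPM in high-STRA8 libraries, whereas Mlh3-202 overlapped between these groups (7.22 to 13.3 TPM and 8.78 and 7.53 TPM). For Tex11, the split between Tex11-201 and Tex11-203 went from 0.037 and 573 TPM in high-STRA8 replicate 1 to 314 and 260 TPM in replicate 2, while the sum of all Tex11 transcripts was 577 and 579 TPM. Both transcripts share their 3′ end and start close together, and whether the split reflects the assignment of shared reads was not tested.

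**Figure D3:**
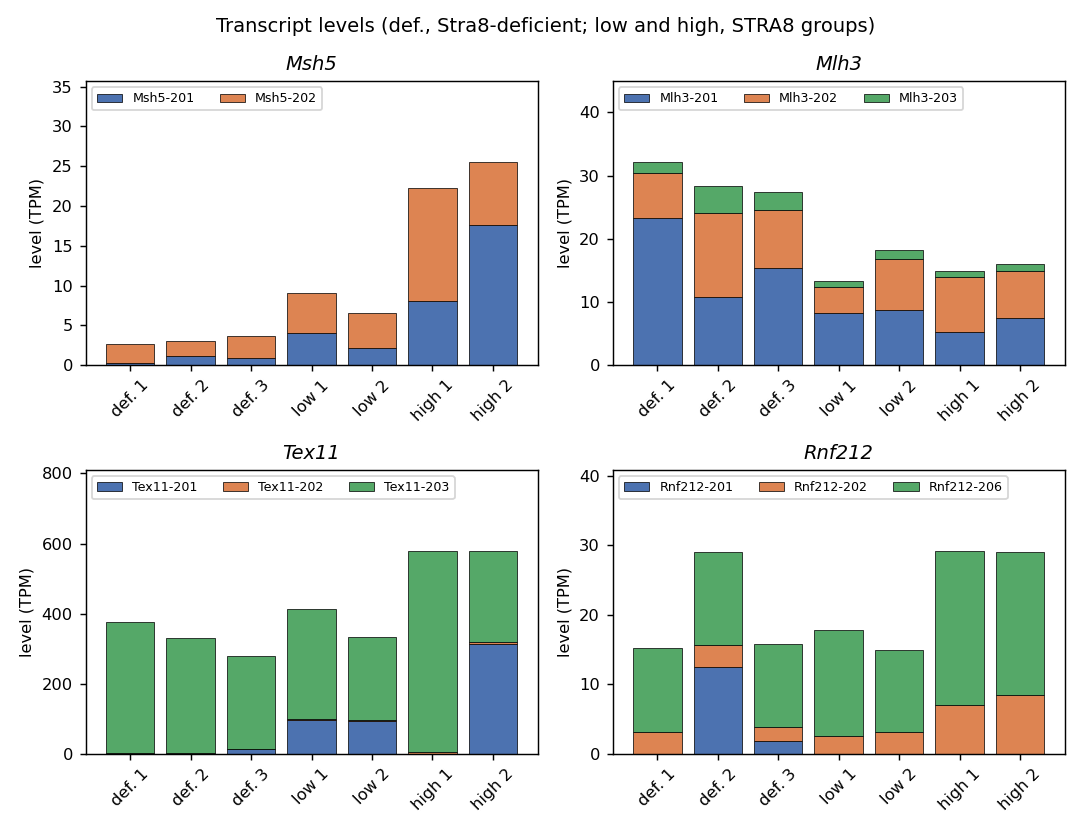
Level of each transcript (TPM, stacked, vertical axis from 0) of Msh5, Mlh3, Tex11 and Rnf212 in the 7 libraries. The bars for Rnf212-201 appear in Stra8-deficient replicates 2 and 3, and the Tex11 bars keep like heights in the 2 high-STRA8 libraries although their parts differ.

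STRA8-FLAG binding was then compared with these changes. By the study's rule, a gene was bound if at least 2 of 3 FLAG/FLAG libraries and no wild-type library had a summit within 1 kb of a TSS, and 22.5% of 12471 tested genes were bound. Of the 9 genes 5 were bound, namely Msh5, Hfm1, Tex11, Rnf212 and Mcmdc2, and all 5 were among the 7 that rose in high-STRA8 against Stra8-deficient cells. Among the 29 other genes of the pathway, 13 were bound, and 8 of these rose in that comparison. The share of all bound tested genes that rose was not counted here. In the study, bound genes whose level changed in that comparison were mostly higher, so a rise of bound genes is not particular to these genes. Cntd1 and Ccnb1ip1 rose without a summit, the nearest being 37.0 and 75.6 kb from their TSSs. Mlh3, which fell, had none within 203 kb. Msh4 had 1 summit, in FLAG/FLAG replicate 1, with a score of 11.2 in a coding exon 317 bp downstream of a TSS. No wild-type library had a summit within 1 kb of any of the 9 genes, although wild-type libraries had 45 to 798 summits against 2035 to 5687 in FLAG/FLAG libraries.

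The strength of the summits differed widely. Msh5 scored 197, 103 and 82.0 in FLAG/FLAG replicates 1 to 3, ranks 16, 28 and 45 among 5687, 3299 and 2035 summits. Its summits lay between 34 bp upstream and 41 bp downstream of the nearest TSS, in the first intron and first exon of Msh5. Hfm1 scored 160, 96.3 and 124 (ranks 29, 37 and 17), with summits within 17 bp of each other. Tex11 scored 31.4, 14.3 and 25.8, at 96 bp upstream, 3 bp downstream and 98 bp upstream of a TSS, and Rnf212 scored 18.2 and 17.3 in replicates 1 and 3, at 1 and 49 bp upstream. Mcmdc2 scored 16.4 and 23.3 in replicates 1 and 2, at 6 and 15 bp downstream. The median score of all summits was 14.4, 13.5 and 14.0 in the 3 libraries, so that Msh5 and Hfm1 stood near the top of each library. The other 3 genes ranked lower, Tex11 at 910, 1500 and 374, Rnf212 at 2032 and 754 and Mcmdc2 at 2368 and 734 in the libraries given. If a summit was needed in all 3 FLAG/FLAG libraries, or in both of replicates 2 and 3, 3 of the genes were bound (Msh5, Hfm1 and Tex11). No other gene had a TSS within 1 kb of these summits.

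**Figure D4:**
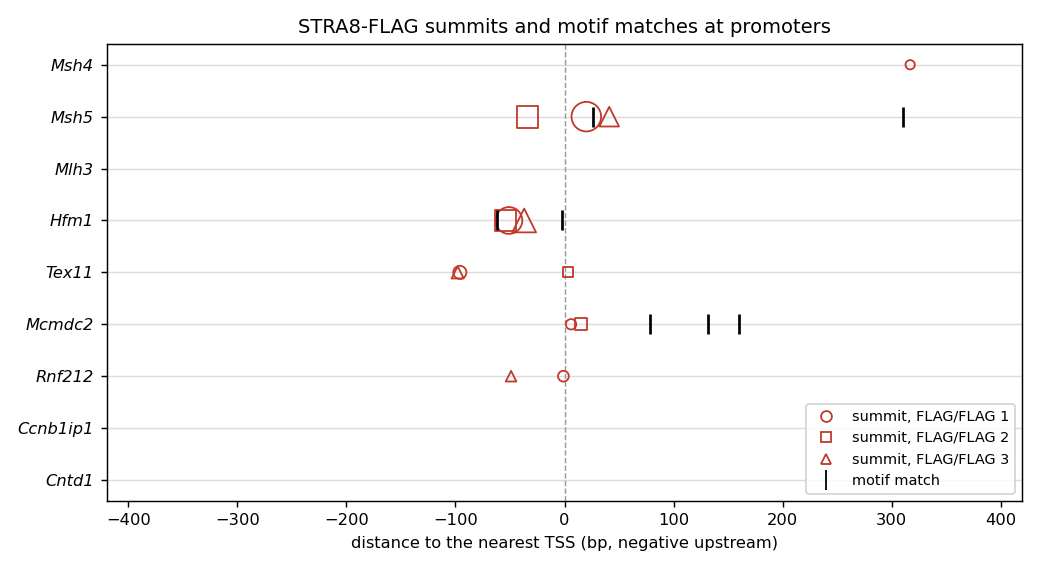
Position of STRA8-FLAG summits (red symbols, 1 shape per FLAG/FLAG library, area growing with the MACS2 score) and of motif matches (black ticks) relative to the nearest TSS of each gene, in bp. Summits of the 5 bound genes lay within 98 bp of a TSS, and Mlh3, Ccnb1ip1 and Cntd1 had neither a summit nor a match around the TSSs of their counted transcripts.

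Exact matches to CNCCTCAG were counted in 2 kb around each TSS. At least 1 was present for 3 of the 9 genes, Mcmdc2 (3 matches), Msh5 (2) and Hfm1 (2), and for 46.3% of tested genes. At least 2 matches were present for 13.8% and at least 3 for 3.44% of tested genes. Among tested genes, 61.7% of bound and 41.9% of unbound genes had a match. Since the motif came from promoter summits of these same FLAG/FLAG libraries, more matches at bound genes and FLAG/FLAG summits are no separate evidence. In 100 bp centred on a summit, Msh5 had 1 match in each library and Hfm1 had 1, 1 and 2, against a match at 9.7, 13.9 and 15.5% of all summits of the 3 FLAG/FLAG libraries and 1.6 to 3.7% in the wild-type libraries. The Msh5 match lay 6 bp from the nearest summit, in the 5′ untranslated part, and the Hfm1 matches lay 8 and 34 bp away. Tex11 and Rnf212, also bound, had no match in either window. GC content in 1 kb around the TSS ranged from 48.5% for Tex11 to 62.4% for Msh5, with a median of 59.1% over tested genes, and was above that median for Msh5 and Hfm1 only.

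The other genes of the pathway were taken from 4 lists of 29 genes in all. Of these, 15 rose and 2 fell in high-STRA8 against Stra8-deficient cells, where 18.8% and 18.3% of tested genes did, with a median log2 fold change of 0.37 against -0.02 for all tested genes. STRA8-FLAG bound 13 of them, by the rule that 22.5% of tested genes met. Of these 13, 8 rose and 5 did not, and 7 of the 15 that rose were not bound. Among 7 other mismatch repair genes, 5 rose, among them Pms2, Exo1 and Msh3, and the other 2 did not pass. Pms2, a MutL gene of mitotic mismatch repair, was at 33.2, 33.9 and 31.9 TPM in Stra8-deficient and 77.3 and 75.7 TPM in high-STRA8 libraries, with no overlap (log2 1.35 ± 0.096 SE, adjusted p = 6.62e-05, edgeR). Exo1, an exonuclease that works with MutLγ, rose 2.05-fold (adjusted p = 0.000356). Pms2 had summits in all 3 FLAG/FLAG libraries, which also lay within 1 kb of a TSS of Aimp2, and Exo1 had a summit in 1.

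Among 7 other genes of crossover promotion and designation, 4 rose, 1 fell and 2 did not pass. AI481877, the mouse gene for SHOC1, was at 17.9, 15.5 and 12.04 TPM in Stra8-deficient, 20.9 and 16.4 TPM in low-STRA8 and 52.9 and 57.9 TPM in high-STRA8 libraries (log2 1.96 ± 0.155 SE, adjusted p = 9.25e-05). 1700028K03Rik, which encodes its partner SPO16, was at 3.01, 2.52 and 3.59 TPM, 5.13 and 5.16 TPM and 15.9 and 16.6 TPM in the same groups (log2 2.42 ± 0.308 SE, adjusted p = 0.000661). Both genes had high-STRA8 levels above all other libraries. Their promoters differed: 1700028K03Rik had summits in all 3 FLAG/FLAG libraries (scores 35.0, 13.6 and 19.5) and AI481877 in none. Gm10332, the symbol under which Rnf212b is listed, went the other way from Rnf212. It was at 61.7, 57.0 and 55.6 TPM in Stra8-deficient, 51.1 and 66.6 TPM in low-STRA8 and 36.3 and 38.1 TPM in high-STRA8 libraries, with a decrease by 0.57 on the log2 scale against Stra8-deficient cells (adjusted p = 0.0194). STRA8-FLAG summits lay at its TSS in all 3 libraries (scores 36.2, 13.2 and 12.4). This call was lost with the replicate block (adjusted p = 0.0578) and without Stra8-deficient replicate 1 or 3 or either high-STRA8 replicate (adjusted p = 0.0524, 0.0542, 0.125 and 0.129).

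Of 6 joint molecule nuclease genes, 1 rose and 1 fell in high-STRA8 against Stra8-deficient cells, a share near that of all tested genes (18.8% and 18.3%). Slx4, a nuclease scaffold, was at 6.32, 6.30 and 4.74 TPM in Stra8-deficient, 1.22 and 1.96 TPM in low-STRA8 and 8.57 and 10.7 TPM in high-STRA8 libraries, so that its low-STRA8 level was the lowest. Its rise against Stra8-deficient cells (log2 0.84, adjusted p = 0.0205) was lost with the replicate block (adjusted p = 0.0532), without Stra8-deficient replicate 3 (adjusted p = 0.0734) and without high-STRA8 replicate 2 (adjusted p = 0.188). Eme1, the partner of MUS81, decreased by 0.45 on the log2 scale (adjusted p = 0.0231), a call lost without Stra8-deficient replicate 2 or either high-STRA8 replicate (adjusted p = 0.0593, 0.163 and 0.152). Of 9 genes of joint molecule dissolution and crossover limitation, 5 rose and 4 did not pass, with Rmi2, a subunit of the BLM complex, going from 4.43 to 5.03 TPM up to 14.4 and 14.1 TPM (log2 1.66 ± 0.144 SE, adjusted p = 0.00013). Of all 29 genes, 17 were called in high-STRA8 against low-STRA8 (16 higher and 1 lower, Gm10332, where 21.4% and 18.3% of tested genes were) and 14 in low-STRA8 against Stra8-deficient cells (7 higher and 7 lower, where 10.2% and 13.9% were). Without high-STRA8 replicate 2, 10 of 29 were called in high-STRA8 against Stra8-deficient and 8 in high-STRA8 against low-STRA8 cells, where 9 were called without high-STRA8 replicate 1. In low-STRA8 against Stra8-deficient cells 8 were called without low-STRA8 replicate 1 and 9 without either high-STRA8 replicate.

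**Figure D5:**
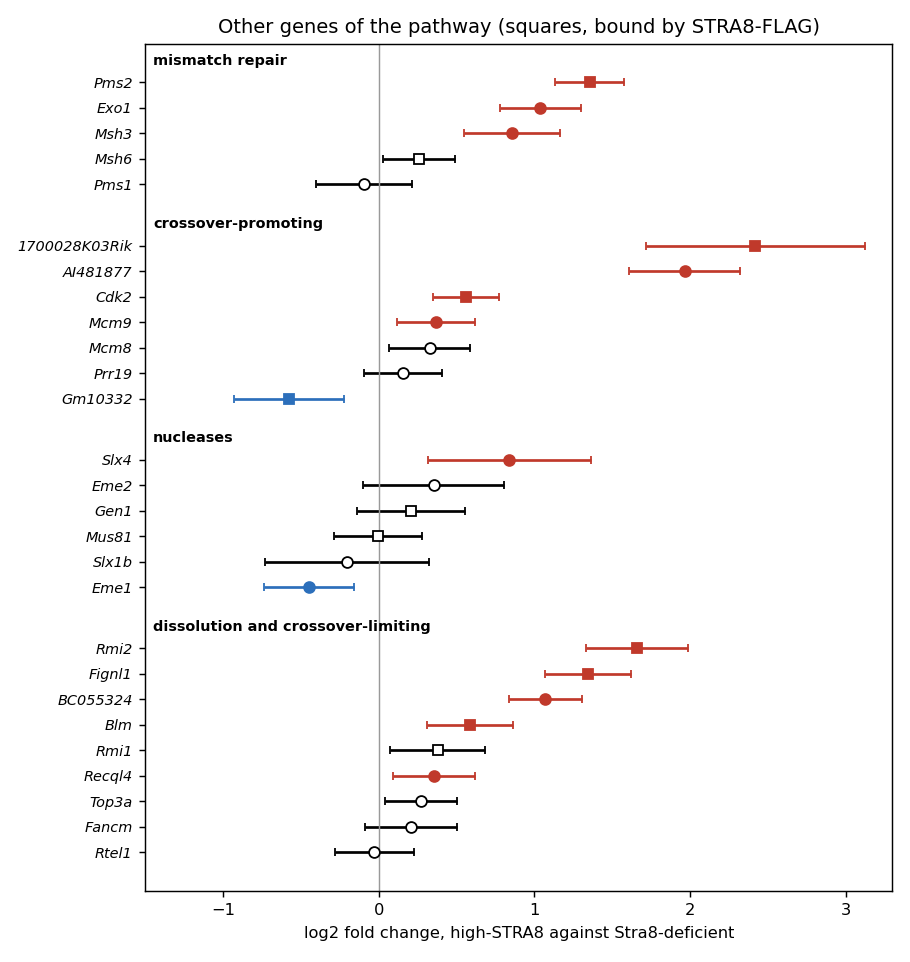
The edgeR log2 fold change of 27 of the 29 other genes in high-STRA8 against Stra8-deficient cells (horizontal axis, 95% intervals), by list. Squares mark genes bound by STRA8-FLAG, red and blue points genes that rose or fell, and open symbols genes that did not pass. Gm10332 and Eme1 were the 2 genes that fell, and 1700028K03Rik and AI481877 had the largest increases.

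Levels in low-STRA8 libraries moved with transcript length. The median log2 fold change of high-STRA8 against low-STRA8 cells went from -0.34 in the shortest to 0.42 in the longest of 5 classes of tested genes by effective length, and that of low-STRA8 against Stra8-deficient cells from 0.27 to -0.38. In high-STRA8 against Stra8-deficient cells these medians were -0.10 and 0.04. Rnf212 and Ccnb1ip1 were in the shortest class and Mlh3 in the longest. In low-STRA8 against Stra8-deficient cells Rnf212 (0.28) and Ccnb1ip1 (0.70) compare with a class median of 0.27, and Mlh3 (-0.69) with -0.38. The other pathway genes that were lower there were in the longest class (Slx4, Eme2, Fancm, Rtel1 and Recql4) or the next (Gen1 and Slx1b, class median -0.07). Exo1 of the longest class and Rmi2 of the next were higher there. The part of transcript length in the results was not tested.

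The gene most like each of the 9 was found by Pearson's r of log2(TPM + 1) over the 7 libraries, which share 3 groups, so that any gene that separates them scores high. It was Atad2 for Hfm1 (r = 0.999), Lysmd1 for Cntd1 (0.999), Hist1h2bb for Tex11 (0.999), Spc24 for Msh5 (0.998), Sgtb for Mcmdc2 (0.996), Supt20 for Mlh3 (0.992), Polk for Msh4 (0.988), Zfp383 for Ccnb1ip1 (0.983) and Myo15 for Rnf212 (0.973). An r over 0.95 was reached by 497 genes for Hfm1 and 438 for Cntd1, and by 13 for Rnf212 and 16 for Ccnb1ip1. Among the 9, Hfm1, Tex11, Cntd1 and Mcmdc2 had r of 0.943 to 0.979 with each other, and Mlh3 had an r of -0.845 with Msh5.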

How the data were processed

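The authors quantified RNA-seq reads with kallisto 0.43.0 (versions are from the submitters' processing notes) (Ensembl release 90, GENCODE basic) and deposited estimated counts and effective lengths per transcript, TPM per gene and normalized counts per gene (a signal scaled between libraries). The authors called ChIP-seq peaks with MACS2 2.1.1.20160309 in each library against its own input on mm10, and the deposited summit score is −log10 p. Estimated counts of transcripts were summed by gene and rounded, after the sums were checked against the deposited TPM (within 0.2% or 0.003 TPM). Of 12545 genes over 1 TPM in at least 1 of 7 libraries, 17 could not be matched. Groups were compared with edgeR 4.0.16 (TMM, quasi-likelihood F test, robust, all 7 libraries in 1 fit by group, Benjamini-Hochberg adjustment over all 12528 genes), and differences are given with SE and 95% intervals from that fit. The test was checked on simulated counts. DESeq2 1.42.0, limma 3.58.1 (log2(TPM + 1)), RLE size factors, other filters, length offsets, 2-group fits, a replicate block and leaving out each library were tried. Each ChIP sample was 1 mouse. The labels do not say how many mice gave an RNA library, so p-values measure the spread between these libraries.

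Sequence was read from GRCm38.p6, whose coordinates are those of mm10, with GENCODE M21 gene models, in which all 33 start codons read for the 9 genes were ATG. TSSs are those of protein-coding transcripts in the kallisto index. The motif was read from a heading of the study's supplementary tables, and the rule for bound genes from its methods. Rnf212b was matched by its transcripts to Gm10332. The 9 genes and all lists were chosen with earlier results of these data known. The genes given with values are the 9, Stra8, in each other list the gene with the smallest adjusted p among those that rose and among those that fell, Pms2, AI481877, 1700028K03Rik, Rnf212b, Exo1 and the most alike genes. Becn1 and other names given to spell out a count were chosen after their values were seen. Some genes of the other lists enter the counts but are not reported here singly.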

Additional observations from a re-analysis of the deposited data

How the results depend on the processing

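In high-STRA8 against Stra8-deficient cells, 8 of the 9 genes were called and 6 to 9 when each library was left out in turn. In high-STRA8 against low-STRA8 cells 7 were called and 3 to 7 when each library was left out, the 3 being Msh5, Hfm1 and Cntd1 without either high-STRA8 replicate, where the lone high-STRA8 library is assumed to vary like the other groups. In low-STRA8 against Stra8-deficient cells 3 were called and 2 to 4 with each library left out. Of the 29 other genes 17, 17 and 14 were called in these comparisons, and 10 to 17, 8 to 16 and 8 to 13 with each library left out. Fitting only the 2 groups compared left 8 of 14 in the last. Calls over all tested genes fell from 4650 to 2433 and 1983 without high-STRA8 replicate 1 or 2 in the first comparison, from 4967 to 2612 and 1642 in the second and from 3012 to 1945 and 1823 in the last, where they also fell to 1704 without Stra8-deficient replicate 2 and to 1799 with only the 2 groups. Fewer samples enter these fits. Of the 9 genes 5 were bound, 3 if all 3 FLAG/FLAG libraries were needed, and 3 to 4 with each FLAG/FLAG library left out. By limma on log2(TPM + 1) the share of calls that were higher was 40.5% against 50.8% by edgeR in high-STRA8 and 15.5% against 42.2% in low-STRA8 against Stra8-deficient cells. The median of all tested genes in the latter went from 0.03 to -0.15, and that of the 9 genes from 0.36 to 0.18; in high-STRA8 against low-STRA8 cells these went from 0.01 to 0.11 and from 0.87 to 0.90. The count of genes with a motif match (3) was unchanged in the 1 kb window and with the longest transcript only.

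Under the alternatives run for each, Msh5 kept its direction and call in all 3 comparisons, Hfm1 and Cntd1 in both comparisons of high-STRA8 cells, Tex11, Mcmdc2 and Mlh3 in high-STRA8 and Ccnb1ip1 in low-STRA8 against Stra8-deficient cells. Differences that changed sign were Rnf212 in low-STRA8 against Stra8-deficient cells with length offsets (-0.092) and by limma (-0.22), Hfm1 there without low-STRA8 replicate 1 (-0.049; 0.663 without replicate 2), Gm10332 there without low-STRA8 replicate 2 (-0.032; 0.440 without replicate 1), Mlh3 in high-STRA8 against low-STRA8 cells without low-STRA8 replicate 2 (0.15; -0.375 without replicate 1) and Eme1 there by limma (0.01). None of these had been called, and the cause was not tested. Mcmdc2 was not tested under the filter at 5 TPM, which it does not reach.

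Replicate numbers in the labels are shared by the groups, but same-numbered libraries did not deviate together (r of deviations from the group means -0.225 to 0.038). With 2 libraries in a group the deviations mirror each other, so these few r values are not independent and cannot decide whether the numbers pair libraries. With a replicate block, 7, 6 and 3 of the 9 genes and 13, 15 and 10 of the 29 others were called in the 3 comparisons, in the order above, and 3399, 4489 and 2577 of all tested genes. Ccnb1ip1 against Stra8-deficient and Rnf212 against low-STRA8 cells lost their calls. Pairing low-STRA8 and high-STRA8 libraries with crossed numbers, an alternative chosen after seeing the data, gave 5 of the 9 and 13 of the 29. The precision is limited by 2 or 3 libraries a group and, for Mcmdc2, by 10 to 92 estimated counts.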
